A study of Mus musculus with 12 samples.

Results

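The genes described here are the 2 main members of the mouse HMGA family and the 3 members of its IGF2BP family: Hmga1, Hmga2, Igf2bp1, Igf2bp2 and Igf2bp3. They were picked by symbol, 5 of 52636 genes in the expression tables, and each symbol matched 1 row. The choice was made with their response to Klf4 knockdown known, so their levels, fold changes and separations between groups are given as a description, with no test. The question put to the libraries is how silencing of Klf4, a pluripotency transcription factor, alters transcripts in airway smooth muscle cells (SMCs) and in lung PDGFR-β+ cells. Bulk RNA-seq was performed on 12 libraries in 4 groups of 3.

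HMGA proteins are small chromatin proteins that hold AT-rich DNA in its minor groove through short AT-hook motifs and alter how transcription factors assemble there. IGF2BP proteins bind mRNAs and protect or localise them, among them the Igf2, H19, Myc and Actb transcripts, and are also known as readers of the m6A mark on RNA. Hmga2, Igf2bp1 and Igf2bp3 are called oncofetal because they are abundant in the embryo, low in most adult tissues and often abundant again in tumours. The let-7 microRNAs, which the RNA-binding proteins LIN28A and LIN28B hold back in the embryo, repress several of these genes through sites in their 3′ UTRs.

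The SMCs were a commercial primary culture from C57BL/6 trachea (a CellBiologics line, with no age given), while sample names call them lung airway cells. The PDGFR-β+ cells came from lungs of mice aged 12 weeks that the labels give as C57BL/6, and the study's methods describe such cells as sorted by a reporter that Pdgfrb-CreERT2 switched on. In each cell type, control cells received scrambled RNA (Scr, labelled genotype WT) and the others received siRNA against Klf4 (siKlf4, labelled Klf4 KD), so the knockdown was transient and no Klf4 allele was deleted. Both RNAs were used at 50 nM for 6 h, RNA was taken 72 h later, and both cell types spent those hours in smooth muscle medium, although the study describes another medium (DMEM) for routine culture of the PDGFR-β+ cells. Cell type, source, earlier medium and expression table changed together, so they cannot be told apart in any comparison of SMCs with PDGFR-β+ cells.

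Values are in TPM, a level scaled to transcript length and to the library, which keeps no read total per library (a yield aimed for stands in the methods). Klf4 itself was at 89.6, 96.3 and 95.0 TPM in Scr-treated SMCs and 26.5, 16.3 and 18.8 TPM with siKlf4, and at 144, 146 and 134 TPM against 12.3, 13.8 and 12.8 TPM in PDGFR-β+ cells. The defining smooth muscle regulator Myocd was near 0 in all libraries (at most 0.213 TPM), and Acta2, which encodes smooth muscle α-actin, averaged 1373 TPM in Scr-treated SMCs against 4369 TPM in Scr-treated PDGFR-β+ cells. Pdgfrb averaged 214 TPM in Scr-treated SMCs and 447 TPM in Scr-treated PDGFR-β+ cells, so neither label is set apart by its marker being absent from the other. In bulk samples, fewer cells of a type and less RNA per cell cannot be told apart.

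Markers of several cell types moved with siKlf4. Of 8 smooth muscle markers tested, 7 rose in SMCs, where their summed level was 1509 to 2299 TPM with Scr and 3432 to 4204 TPM after knockdown, and 3 rose and 3 fell in PDGFR-β+ cells (5577 to 6428 and 4736 to 5039 TPM). The 3 fallen there became 1 without Scr replicate 1 or siKlf4 replicate 3. Among fibroblast and pericyte markers 2 of 9 fell in SMCs (Lum and Cspg4) and 3 of 6 in PDGFR-β+ cells (Cspg4, Col1a1 and Pdgfrb), where Cspg4 fell by 1.97 (limma adjusted p = 3.4e-04). The SMC calls of that list were both lost without any 1 of the numbered libraries. Summed mesothelial markers went from 16.98 to 26.7 TPM (Scr) to 7.03 to 9.99 TPM (siKlf4) in SMCs and from 14.2 to 15.9 TPM (Scr) to 3.08 to 3.34 TPM (siKlf4) in PDGFR-β+ cells. Of these, Msln fell in both (by 1.29 and 2.48, limma adjusted p = 0.0043 and 4.4e-05), 2 of 2 tested, Msln and Wt1, fell in SMCs (1 of them whichever library was left out) and 3 of 3 in PDGFR-β+ cells. Macrophage markers summed to 4.44 to 7.19 TPM in SMCs, where 0 of 2 passed, and in PDGFR-β+ cells to 28.7 to 29.9 TPM with Scr and 18.7 to 22.8 TPM with siKlf4. Of 3 tested in PDGFR-β+ cells, Csf1r and Lyz2 fell and Cd68 did not pass (0.20, limma adjusted p = 0.29), while Ptprc was at or near 0. Endothelial markers summed to 1.56 to 4.27 TPM in SMCs and 14.1 to 18.4 TPM in PDGFR-β+ cells, there mostly from Kdr, a receptor gene that rose by 1.22 in SMCs (limma adjusted p = 0.0023), while Pecam1 and Cdh5 were under 0.5 TPM. Tek rose in PDGFR-β+ cells (limma adjusted p = 0.021), a call kept without Scr replicate 3 or siKlf4 replicate 2 and lost without any other 1 library. Epithelial markers summed to 1.10 TPM or less. The part of these shifts in the values below was not tested.

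A sequence feature that the 5 genes share, and by which they were not chosen here, is a match to the let-7 seed in the 3′ UTR. In the RefSeq table of mature mouse microRNAs (GRCm38.p6), 11 of 1679 names carry the let-7 seed, bases 2 to 8, which stands in capitals in the 3 below.
let-7a-5p: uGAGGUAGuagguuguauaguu
let-7g-5p: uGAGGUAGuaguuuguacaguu
miR-98-5p: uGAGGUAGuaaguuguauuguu

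The DNA letters that pair with this seed, CTACCTC, were searched on the transcript strand in the longest annotated 3′ UTR of each gene (GENCODE M21, GRCm38). Each of the 5 genes had at least 1 match, against 9.06% of 20938 protein-coding genes. Hmga2 had 4 in 3014 bases, a number that 2 of the 2245 other genes with a 3′ UTR within 20% of its length reached or passed. Igf2bp1 had 4 in 6337 bases, a number reached or passed by 1 of 562 other genes of like length. Hmga1, Igf2bp2 and Igf2bp3 had 1 match each, and at least 1 was found in 8.05%, 12% and 13.3% of genes of like length. A match is a description of the letters and not a measured site, and let-7 itself was not measured in these libraries. The matches of Hmga2 on the minus strand of chromosome 10 are printed with 15 bases before and 1 base after, the seed match in capitals and the coordinates in GRCm38.
Hmga2 chr10:120364224-120364246: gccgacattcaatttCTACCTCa
Hmga2 chr10:120362987-120363009: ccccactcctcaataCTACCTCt
Hmga2 chr10:120362549-120362571: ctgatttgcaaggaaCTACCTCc
Hmga2 chr10:120361691-120361713: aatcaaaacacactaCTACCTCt

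The 4 matches of Igf2bp1 lie on the minus strand of chromosome 11, and 3 of them are followed by an A, a base often found there in known microRNA sites. Those of Igf2bp2 and Igf2bp3 are followed by an A as well, and that of Hmga1 by a T.
Igf2bp1 chr11:95961778-95961800: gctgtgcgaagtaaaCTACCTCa
Igf2bp1 chr11:95959357-95959379: cagcagtgctattaaCTACCTCa
Igf2bp1 chr11:95958763-95958785: gtataaatggatgaaCTACCTCa
Igf2bp1 chr11:95958140-95958162: acttttggttttaatCTACCTCt
Igf2bp2 chr16:22059473-22059495 (minus strand): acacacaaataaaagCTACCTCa
Igf2bp3 chr6:49086787-49086809 (minus strand): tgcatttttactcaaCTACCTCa
Hmga1 chr17:27563277-27563299 (plus strand): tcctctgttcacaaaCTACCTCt

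**Figure D1:**
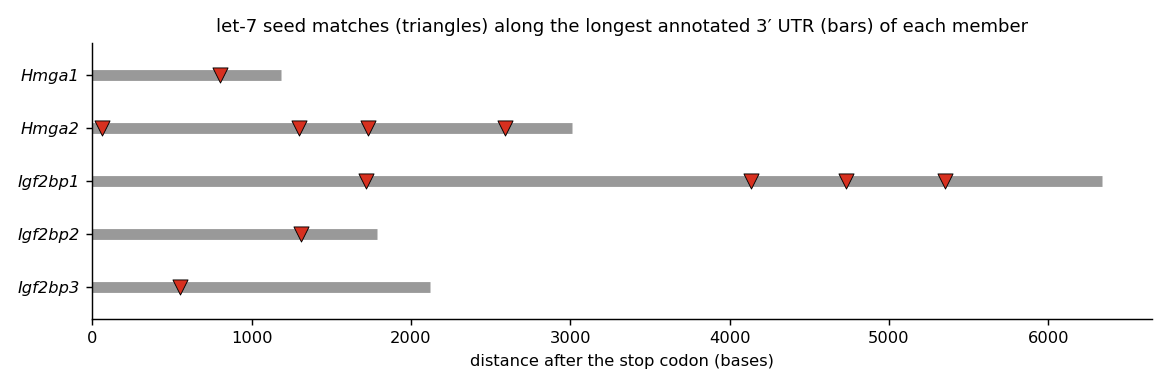
Map of let-7 seed matches (triangles) along the longest annotated 3′ UTR (grey bars, length in bases after the stop codon) of the 5 genes. The first match of Hmga2 starts at base 58 and its other 3 spread over the rest of 3014 bases, while the 4 of Igf2bp1 start at bases 1715, 4136, 4730 and 5353.

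Hmga2 encodes the HMGA protein that is largely confined to embryonic and undifferentiated mesenchyme, and its gene spans chr10:120361275-120476469 on the minus strand. In SMCs the Scr libraries held 86.7, 114 and 125 TPM and the siKlf4 libraries 336, 379 and 351 TPM, so that every siKlf4 library lay above every Scr library. In PDGFR-β+ cells the order turned: its level was 229, 282 and 209 TPM (Scr) and 118, 147 and 136 TPM (siKlf4), and every siKlf4 library lay below every Scr library. The means were 109 ± 19.8 and 355 ± 21.8 TPM in SMCs (SD, n = 3 each), 3.27-fold, and 240 ± 38.0 and 134 ± 15.1 TPM in PDGFR-β+ cells, 0.556-fold. On the log2(TPM + 1) scale, the scale of all log2 values below, the change was 1.72 (SE 0.13) in SMCs and -0.84 (SE 0.13) in PDGFR-β+ cells, 2.55 apart (SE 0.20). In SMCs that was the 45th largest log2 change among 13709 genes, and in PDGFR-β+ cells the 621st from the lower end of 13694.

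The background for these separations is broad. Of the 13709 genes averaging 1 TPM or more in SMCs, 47.1% had Scr and siKlf4 libraries that did not overlap, 25.6% with siKlf4 on the higher and 21.5% with it on the lower side. Of 13694 such genes in PDGFR-β+ cells the share was 53.8%, with 33.9% on the higher and 19.8% on the lower side. Among 13032 genes measured in both, 4.98% lay higher without overlap in SMCs and lower without overlap in PDGFR-β+ cells, as Hmga2 did, and 11.6% lay higher without overlap in both. As the genes were chosen on this contrast, nothing is read from their counts against these shares.

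Hmga1, the more widely expressed HMGA gene, lies at chr17:27556497-27563674 on the plus strand. In SMCs it stood at 78.3, 105 and 104 TPM in Scr libraries and at 113, 135 and 126 TPM in siKlf4 libraries, a log2 difference of 0.39 (SE 0.13), with no overlap. In PDGFR-β+ cells it stood at 125, 200.5 and 114 TPM (Scr) and at 193, 263 and 230 TPM (siKlf4), a log2 difference of 0.67 (SE 0.21). There the lowest siKlf4 library fell below the highest Scr library, replicate 2, and the log2 difference without that library was 0.92. Its 3′ end overlaps AI413582 on the opposite strand (34.5 to 43.3 TPM as group means), and although the libraries were made strand-specific, the strand setting of the quantification is not given in the sources used here.

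Igf2bp1, the founding member of its family and a gene of fetal growth, was the lowest of the 5 throughout. Its gene spans chr11:95957163-96005940 on the minus strand. Levels in the SMC Scr libraries were 2.72, 3.65 and 2.88 TPM, against 5.77, 7.47 and 6.93 TPM in the siKlf4 libraries, a log2 difference of 0.92 (SE 0.14). Levels in PDGFR-β+ cells were 7.66, 8.44 and 6.85 TPM (Scr) and 13.9, 13.7 and 14.8 TPM (siKlf4), a log2 difference of 0.81 (SE 0.10). The groups did not overlap in either cell type, and the mean was 2.18-fold higher with siKlf4 in SMCs and 1.85-fold higher in PDGFR-β+ cells. At these low levels the added 1 TPM shrinks the log2 value: with 0.1 TPM in its place the SMC difference was 1.10.

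Igf2bp3, the family member known best from tumours and placenta, spans chr6:49085223-49214957 on the minus strand. It was the one that differed most between the cell types, at 7.93, 9.31 and 10.1 TPM in Scr-treated SMCs against 45.0, 41.9 and 41.4 TPM in Scr-treated PDGFR-β+ cells, 4.69-fold higher in the latter. With siKlf4 it stood at 11.8, 12.0 and 12.7 TPM in SMCs and at 72.6, 71.1 and 71.2 TPM in PDGFR-β+ cells. The siKlf4 libraries lay above the Scr libraries in both cell types, by log2 differences of 0.38 (SE 0.11) and 0.73 (SE 0.07). The 3′ end of Igf2bp3 overlaps Malsu1 on the opposite strand (10.1 to 11.9 TPM as group means). That is near the level of Igf2bp3 in SMCs (means of 9.12 TPM with Scr and 12.2 TPM with siKlf4). As for Hmga1, the strand setting of the quantification is not given.

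Igf2bp2, the member that adult tissues keep, spans chr16:22059009-22163299 on the minus strand and moved least. In SMCs the Scr libraries held 88.2, 83.9 and 83.6 TPM and the siKlf4 libraries 100.2, 96.0 and 92.8 TPM, a small separation, with a log2 difference of 0.17 (SE 0.06). In PDGFR-β+ cells it was at 70.4, 62.9 and 61.7 TPM (Scr) and 63.2, 59.3 and 60.3 TPM (siKlf4), and the groups overlapped. All 5 genes thus lay above Scr without overlap in SMCs, while in PDGFR-β+ cells Igf2bp1 and Igf2bp3 lay above it and Hmga2 below it without overlap.

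**Figure D2:**
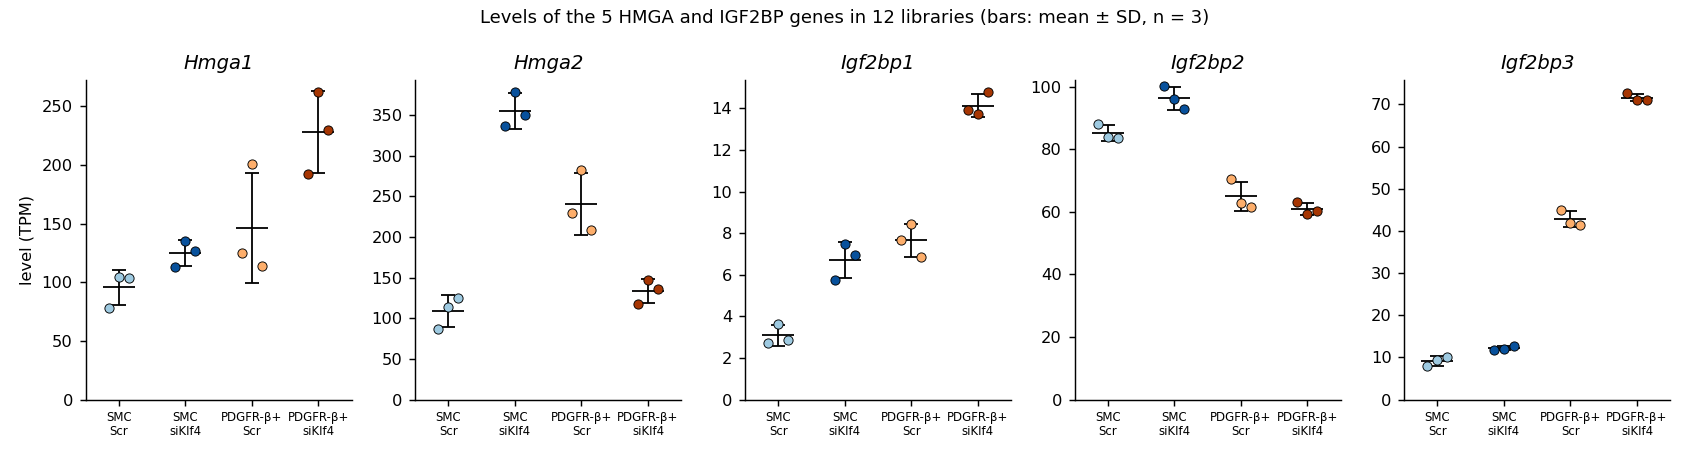
Level in TPM (vertical axis, from 0) of each gene in every library, as points for the 4 groups (horizontal axis), with the mean and SD of 3 libraries as bars. Hmga2 is highest in siKlf4-treated SMCs and second highest in Scr-treated PDGFR-β+ cells, while Igf2bp3 and Igf2bp1 are highest in siKlf4-treated PDGFR-β+ cells.

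The order of the 4 groups differed from gene to gene. For Hmga2 it ran from siKlf4-treated SMCs through Scr-treated PDGFR-β+ cells to the other two groups, siKlf4-treated PDGFR-β+ cells and Scr-treated SMCs, whose libraries overlapped. For Hmga1 and Igf2bp1 it ran from siKlf4-treated to Scr-treated PDGFR-β+ cells and then from siKlf4-treated to Scr-treated SMCs, with overlap between Scr-treated PDGFR-β+ cells and siKlf4-treated SMCs, and for Hmga1 also between the PDGFR-β+ groups. Igf2bp3 held the same order with no overlap between any neighbours. Igf2bp2 alone had both SMC groups above both PDGFR-β+ groups. At baseline, Scr-treated SMCs minus Scr-treated PDGFR-β+ cells, the log2 differences were -0.58 for Hmga1, -1.14 for Hmga2, -1.09 for Igf2bp1, -2.12 for Igf2bp3 and 0.39 for Igf2bp2, with no overlap for any of them. Such a separation held for 58.6% of 13800 genes, 30.3% with SMCs on the higher and 28.4% with SMCs on the lower side.

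Because TPM is scaled to length, levels can be set against each other within a family. Hmga2 and Hmga1 were near parity in Scr-treated SMCs, where Hmga2 made up 53.1% ± 1.36 of the HMGA total (SD, n = 3), and with siKlf4 its share was 74.0% ± 0.721. In PDGFR-β+ cells the share of Hmga2 went the other way, from 62.6% ± 3.60 with Scr to 37.0% ± 0.971 with siKlf4, so that Hmga1 became the main HMGA transcript. The HMGA total was 204 ± 34.3 and 480 ± 32.6 TPM in SMCs, and 387 ± 84.8 and 362 ± 49.96 TPM in PDGFR-β+ cells, where the libraries of both groups overlapped. In PDGFR-β+ cells the make-up of the family shifted while its total stayed within the spread between libraries.

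Igf2bp2 dominated the IGF2BP family in SMCs, at 87.5% ± 1.52 with Scr and 83.6% ± 1.33 with siKlf4 (SD, n = 3). In PDGFR-β+ cells it held 56.3% ± 0.841 with Scr and 41.5% ± 0.594 with siKlf4, when Igf2bp3 at 48.8% ± 0.425 became the larger part. The ratio of Igf2bp3 to Igf2bp2 was 0.640, 0.666 and 0.672 in the Scr libraries and 1.15, 1.198 and 1.18 in the siKlf4 libraries of PDGFR-β+ cells. In SMCs that ratio stayed between 0.090 and 0.137 in all 6 libraries. Igf2bp1 held 3.17% with Scr and 5.84% with siKlf4 in SMCs, and 6.64% and 9.64% in PDGFR-β+ cells.

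**Figure D3:**
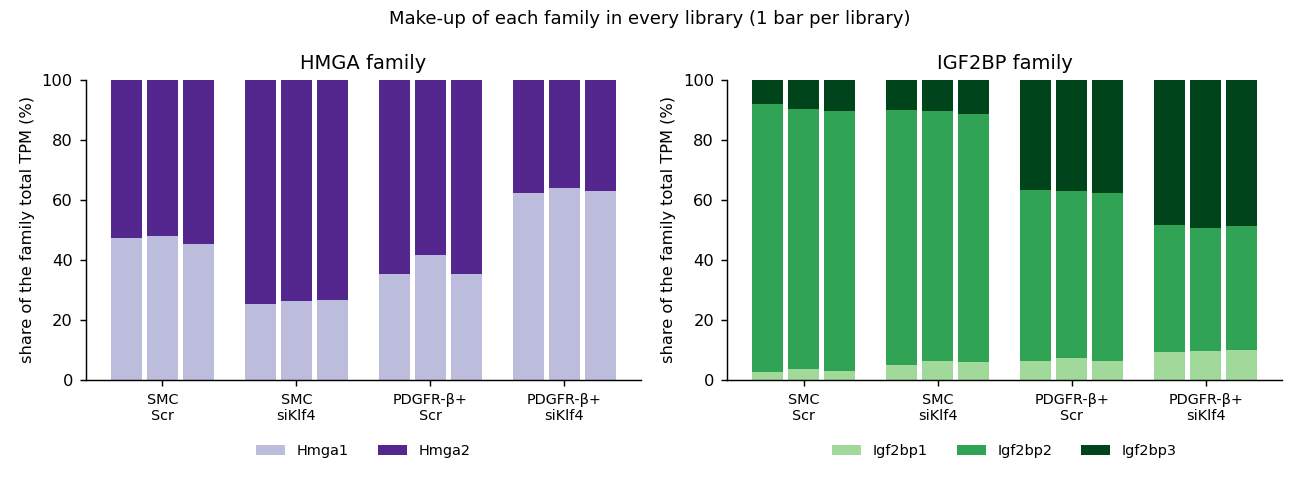
Share of the family's summed TPM (vertical axis, percent) held by each gene, with 1 stacked bar for each of the 12 libraries in 4 groups (horizontal axis). The Hmga2 share is 73.5% or more in siKlf4-treated SMCs and 37.9% or less in siKlf4-treated PDGFR-β+ cells, and Igf2bp3 takes 48.5% or more of the IGF2BP total only in the latter.

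Across the 12 libraries, which fall into 4 groups, Pearson's r of log2 values between members is a description of those groups and is given with no p. Hmga1, Igf2bp1 and Igf2bp3 ran together, with r of 0.91 for Hmga1 and Igf2bp1, 0.88 for Igf2bp1 and Igf2bp3, and 0.83 for Hmga1 and Igf2bp3. Hmga2 ran with none of the others (r from -0.076 to 0.31), and Igf2bp2 was opposite to Igf2bp3 (r of -0.92). Among 13032 genes, those nearest to Hmga2 were Eno1, a glycolytic enolase (r = 0.98), Asna1 (0.97) and Htr1b, a serotonin receptor (0.96). The nearest to Hmga1 were Pde4a, a cAMP phosphodiesterase, D030025P21Rik and Txn1, the cytosolic thioredoxin (0.96 to 0.97), and to Igf2bp1 Ggt1, Coq3 and Ankrd50 (all 0.99). Igf2bp2 was nearest to Ifnar1, a chain of the interferon receptor, Tspyl1 and Ganab (0.98 to 0.99), and Igf2bp3 to Cpa6, Atp1b3 and Coro1c (0.993 to 0.996).

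Pathway genes around the 5 members were taken from 7 lists that hold 86 other genes, of which 84 symbols were in the tables, and were tested by limma in a fit over all genes with Benjamini-Hochberg adjustment. The lists were chosen with earlier results of these data known, so their shares are not read as an excess over all genes. With siKlf4, 22 of 78 tested rose and 5 fell in SMCs, together 34.6% against 28.5% of all genes (15.6% risen and 12.9% fallen), with a median log2 change of 0.15 against 0.02 over all genes. Leaving out 1 library moved that count of 27 to 13 without siKlf4 replicate 2 and to 15 without Scr replicate 2. In PDGFR-β+ cells 31 of 76 rose and 10 fell, 53.9% against 40.6% of all genes (25.3% risen and 15.3% fallen), with a median of 0.22 against 0.10. Once libraries were put on a median-ratio scale, the split was 20 risen and 6 fallen in SMCs and 27 risen and 15 fallen in PDGFR-β+ cells. In the 76 genes tested in both cell types, 9 rose in both, 1 fell in both, 3 rose in SMCs and fell in PDGFR-β+ cells, and 1 did the opposite.

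**Figure D4:**
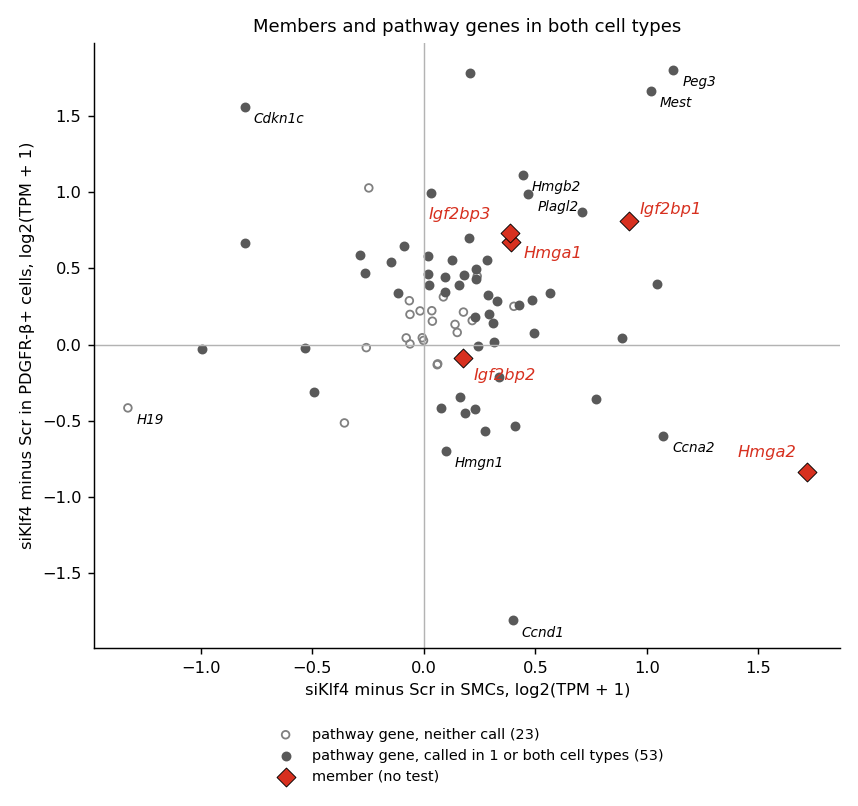
Change with siKlf4 in SMCs (horizontal axis) and in PDGFR-β+ cells (vertical axis), both as log2(TPM + 1) differences, for 76 pathway genes (circles, filled for the 53 called in at least 1 cell type at an adjusted p under 0.05) and the 5 members (diamonds, not tested). Hmga2 lies at the lower right, at 1.72 and -0.84, in the same quadrant as genes that include Ccna2, Ccnd1, Ccnd2 and Cd44.

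The regulators of let-7 stood as follows. Lin28a was listed at 0 in all 12 libraries and Lin28b was at 0.104 TPM or less, so neither block on let-7 processing was measurable as RNA. Of 12 tested genes of the let-7 axis, Dgcr8 and Ago2 rose and 0 fell in SMCs, by 0.29 and 0.34 (limma adjusted p = 0.028 for both). That count of 2 became 0 without Scr replicate 2, Scr replicate 3, siKlf4 replicate 2 or the siKlf4 library that carries no number, and 1 without siKlf4 replicate 3. In PDGFR-β+ cells 5 rose (Zcchc6, Zcchc11, Dicer1, Drosha and Ago4) and 2 fell (Ago1 and Ago3), or 5 and 5 after median-ratio scaling, and 1 fell without any 1 library but siKlf4 replicate 2. The uridylyltransferase genes Zcchc6 and Zcchc11, whose enzymes add U to let-7 precursors, rose in PDGFR-β+ cells, by 0.56 (SE 0.07, limma adjusted p = 7.3e-04) and 0.65 (SE 0.09, adjusted p = 0.0012). In SMCs their values were 0.28 (adjusted p = 0.076) and -0.09 (adjusted p = 0.65), and the difference between the cell types passed, as for 33% of all genes tested, for Zcchc11 (-0.73, adjusted p = 0.0046) and not for Zcchc6 (-0.27, adjusted p = 0.11). Ago1, an Argonaute that carries microRNAs, fell by 0.42 in PDGFR-β+ cells (limma adjusted p = 0.0044). Dicer1, which cuts the precursors, rose there by 0.46 (limma adjusted p = 0.011) and had 0.18 (adjusted p = 0.48) in SMCs.

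Among 18 tested let-7 targets outside both families, 8 rose and 0 fell in SMCs, and 7 rose and 3 fell in PDGFR-β+ cells. The SMC count was 3 without siKlf4 replicate 2 or siKlf4 replicate 3, 4 without Scr replicate 2 or the siKlf4 library that carries no number, and 6 or 7 without any other 1 library. In PDGFR-β+ cells 4 rose after median-ratio scaling, and 4 rose without siKlf4 replicate 2 or siKlf4 replicate 3. The 3 that fell there were Ccnd1, Ccnd2 and Nras. Ccnd1, the gene of cyclin D1, went in SMCs from 256, 314 and 332 TPM (Scr) to 380, 418 and 387 TPM (siKlf4), and in PDGFR-β+ cells from 561, 566 and 548 TPM to 134, 180 and 164 TPM. Its log2 change was 0.40 (SE 0.10, limma adjusted p = 0.029) in SMCs and -1.81 (SE 0.11, adjusted p = 2.9e-05) in PDGFR-β+ cells, the directions of Hmga2, and the 2 changes differed by 2.21 (adjusted p = 4.7e-06). The SMC call of Ccnd1 was lost when any siKlf4 library or Scr replicate 2 was left out, with an adjusted p of up to 0.097. The longest 3′ UTR of Ccnd1 had 0 matches to the let-7 seed, whereas Plagl2, a zinc finger transcription factor gene, and Cdc25a, the phosphatase that starts S phase, had 1 each.

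Plagl2 rose in both, by 0.47 in SMCs (limma adjusted p = 0.012, and 0.052 without siKlf4 replicate 2) and by 0.99 in PDGFR-β+ cells (adjusted p = 3.0e-04). Cdc25a also rose in both, by 0.71 (limma adjusted p = 0.0033) and 0.87 (adjusted p = 3.2e-04). Myc, a target of both let-7 and IGF2BP proteins, had 0.24 (limma adjusted p = 0.18) and 0.45 (adjusted p = 0.050, just over the threshold). Over all genes but the 5 members, 25.7% of 152 genes with 2 or more let-7 seed matches rose in SMCs, against 17.6% of 1121 genes with 1 and 16.9% of 10835 genes with none. In PDGFR-β+ cells the shares were 32.7% of 156, 27.1% of 1109 and 26.5% of 10709. The shares that fell were 13.2%, 11.6% and 13.4% in SMCs and 16.7%, 18.6% and 16.6% in PDGFR-β+ cells, in the same order. These shares are given with no test, since genes with more matches have longer 3′ UTRs and lengths were not matched.

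The other HMG genes encode nucleosome-binding and DNA-bending proteins. In SMCs 1 of 7 rose and 0 fell: Hmgb2, by 0.44 (limma adjusted p = 0.019, and 0.072 without siKlf4 replicate 2). In PDGFR-β+ cells Hmgb2, Hmgb3 and Hmgn3 rose, by 1.11, 0.70 and 0.55 (limma adjusted p = 2.6e-04, 0.011 and 0.0011), and Hmgn1 fell by 0.70 on the log2 scale (adjusted p = 2.6e-04). Hmgn1 was the HMG gene closest to the Hmga2 pattern, at 0.10 in SMCs (limma adjusted p = 0.33) and 0.79 apart between the cell types (adjusted p = 8.9e-05). Hmgb1, Hmgn2 and Hmgn5 passed in neither cell type, with log2 values from -0.07 to 0.29.

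Of 8 genes that HMGA2 is known to act on, 2 rose and 1 fell in SMCs and 3 rose and 1 fell in PDGFR-β+ cells (3 and 3 after median-ratio scaling, 3 and 2 without Scr replicate 3). Ccna2, the gene of cyclin A2, had the directions of Hmga2: it averaged 11.7 and 25.8 TPM in SMCs with Scr and siKlf4, and 31.7 and 20.5 TPM in PDGFR-β+ cells. Its log2 changes were 1.07 (SE 0.12, limma adjusted p = 0.0017) and -0.60 (SE 0.10, adjusted p = 0.0024), 1.68 apart (adjusted p = 1.9e-05). Ccnb2, the gene of cyclin B2, rose by 0.77 in SMCs (limma adjusted p = 0.0094) and had -0.36 in PDGFR-β+ cells (adjusted p = 0.051). The cell cycle inhibitor genes also parted: Cdkn2b fell by 0.53 on the log2 scale in SMCs (limma adjusted p = 0.0046) and had -0.03 in PDGFR-β+ cells (adjusted p = 0.80), while Cdkn2a rose by 0.59 in PDGFR-β+ cells (adjusted p = 0.0021) and had -0.29 in SMCs (adjusted p = 0.39). The genes of mesenchymal transition factors Snai2 and Twist1 rose in PDGFR-β+ cells, by 0.99 and 0.34 (limma adjusted p = 4.1e-05 and 0.0083). In SMCs they had 0.03 and 0.09 (limma adjusted p = 0.90 and 0.32), and Snai1 and Junb passed in neither cell type (log2 values from -0.13 to 0.06). The part of Hmga2 in the changes of these 8 genes was not tested.

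Proliferation genes rose in SMCs, where Hmga2 was higher with siKlf4. Of 12 tested, 10 rose and 0 fell in SMCs (10 or 11 rose with each library left out), with a median log2 change of 0.80. In PDGFR-β+ cells Mcm2 and Pcna rose and Mki67, Ccna2 and Rrm2 fell, with a list median of -0.15 (2 risen and 5 fallen after median-ratio scaling, and likewise without Scr replicate 3). The summed level of the list was in SMCs 219 to 245 TPM (Scr) and 368 to 404 TPM (siKlf4), and 464 to 638 TPM and 518 to 585 TPM in PDGFR-β+ cells. Mki67, the cycling-cell antigen gene, rose by 1.19 in SMCs (limma adjusted p = 9.3e-04) and fell by 0.62 in PDGFR-β+ cells (adjusted p = 0.012). Mcm5, of the replication helicase, rose by 1.52 and Bub1, a spindle checkpoint kinase gene, by 1.15 in SMCs (limma adjusted p = 0.0010 and 0.0015). The part of cell cycling in the level of Hmga2 was not tested.

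Among RNAs that IGF2BP proteins are known to bind, 2 of 7 tested rose in SMCs and 0 of 6 in PDGFR-β+ cells, where 1 fell. In SMCs 1 rose without Scr replicate 2 or siKlf4 replicate 2. Actb, the β-actin gene whose mRNA IGF2BP1 carries to the cell edge, rose by 0.89 in SMCs (limma adjusted p = 0.0034) and had 0.04 in PDGFR-β+ cells (adjusted p = 0.88). Cd44, a hyaluronan receptor gene, rose by 0.41 in SMCs (limma adjusted p = 0.018, lost without Scr replicate 2 or siKlf4 replicate 2, up to 0.067) and fell by 0.54 in PDGFR-β+ cells (adjusted p = 0.0038). Btrc, a ubiquitin ligase subunit gene, had -0.0016 in SMCs and 0.03 in PDGFR-β+ cells (limma adjusted p = 0.99 and 0.84). The genes of this list that passed did so in 1 cell type or in opposite directions. A link of their changes to the levels of the IGF2BP genes was not tested.

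Igf2, which gave the family its name, was at 31.01, 117 and 28.5 TPM in Scr-treated SMCs and 46.3, 31.6 and 64.1 TPM with siKlf4, a wide spread with a log2 change of -0.05 (SE 0.54, limma adjusted p = 0.95). It was at 1.14 TPM or less in all PDGFR-β+ libraries and was not tested there. H19, the noncoding RNA of the same locus, averaged 66.4 and 25.8 TPM in SMCs with Scr and siKlf4 (limma adjusted p = 0.10) and 2.43 and 1.61 TPM in PDGFR-β+ cells (adjusted p = 0.19). Between Scr-treated SMCs and Scr-treated PDGFR-β+ cells the log2 difference for H19 was 4.16 (limma adjusted p = 1.1e-04, against 47.7% of all genes called in that comparison). The PDGFR-β+ cells, with little Igf2 and H19 RNA, had more Igf2bp1 and Igf2bp3 than SMCs but less Igf2bp2 (65.0 against 85.2 TPM with Scr). A link between these levels was not tested, and cell type, source and expression table cannot be told apart there.

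In the network of imprinted and fetal growth genes, 3 of 13 rose (Peg3, Mest and Igf2r) and 4 fell (Cdkn1c, Gpc3, Meg3 and Ndn) in SMCs, and 5 of 11 rose (Peg3, Mest, Cdkn1c, Nnat and Plagl1) and 1 fell (Ndn) in PDGFR-β+ cells. The SMC count of 3 risen was 1 without Scr replicate 2 or Scr replicate 3, and the PDGFR-β+ call of Ndn was lost without Scr replicate 1, Scr replicate 2, siKlf4 replicate 2 or siKlf4 replicate 3. Peg3, a paternally expressed zinc finger gene, rose by 1.12 and 1.80 (limma adjusted p = 9.3e-04 and 2.8e-05), and Mest, another paternally expressed gene, by 1.02 and 1.66 (adjusted p = 0.020 and 1.7e-04). The SMC call of Mest was lost without Scr replicate 2 or Scr replicate 3 (adjusted p of up to 0.058). Cdkn1c, an imprinted cell cycle inhibitor gene, was opposite to Hmga2: it averaged 95.4 and 54.5 TPM in SMCs and 2.20 and 8.38 TPM in PDGFR-β+ cells with Scr and siKlf4. It fell by 0.80 on the log2 scale in SMCs (limma adjusted p = 0.032) and rose by 1.56 in PDGFR-β+ cells (adjusted p = 1.3e-04), 2.36 apart (adjusted p = 6.9e-05). The SMC call of Cdkn1c was lost in 4 of 6 fits with 1 library left out: without the Scr library that carries no number, Scr replicate 2, siKlf4 replicate 2 or siKlf4 replicate 3 (adjusted p of up to 0.0999).

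The genes that write, erase and read m6A had 4 risen (Alkbh5, Rbm15, Virma and Ythdf1) and 0 fallen of 16 in SMCs, and 8 risen and 1 fallen in PDGFR-β+ cells. The SMC count was 1 without siKlf4 replicate 2, 4 without the Scr library that carries no number, and 2 without any other 1 library. Ythdf3, a cytoplasmic reader gene, fell by 0.57 in PDGFR-β+ cells (limma adjusted p = 9.6e-04), with 0.28 in SMCs (adjusted p = 0.32). The nuclear reader genes Ythdc1 and Hnrnpa2b1 rose in PDGFR-β+ cells, by 0.50 and 0.44 (limma adjusted p = 0.0026 and 0.0028), with 0.24 and 0.10 in SMCs (adjusted p = 0.28 and 0.23).

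**Figure D5:**
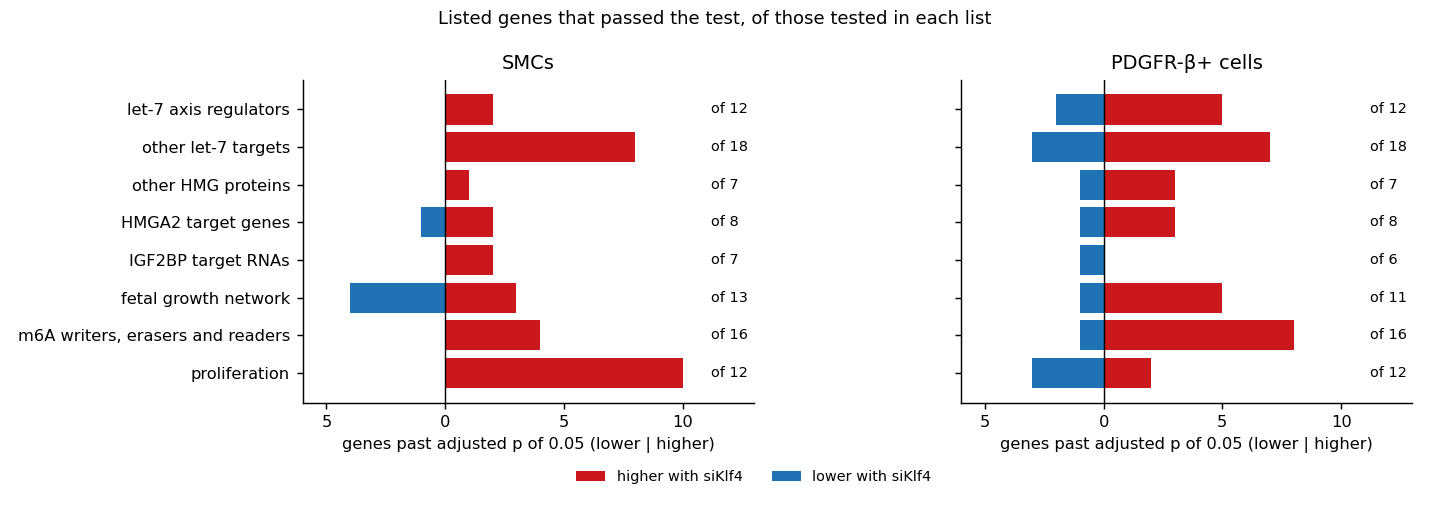
Number of listed genes with an adjusted p under 0.05 (horizontal axis, higher with siKlf4 to the right and lower to the left) in 8 gene lists (vertical axis), with the number tested at the right of each bar. Proliferation genes lead in SMCs, with 10 of 12 higher, and m6A genes in PDGFR-β+ cells, with 8 of 16 higher.

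The genes next to the 5 members on the chromosome were looked up as well, 2 protein-coding genes on each side. Of these 20 neighbours, 8 of 15 tested rose and 1 fell in SMCs, against 15.6% and 12.9% of all genes. The fallen gene was Gngt2 beside Igf2bp1 (by 2.20, limma adjusted p = 6.9e-04). In PDGFR-β+ cells 2 of 13 rose and 1 fell, against 25.3% and 15.3% of all genes. These counts were not tested. Among the risen in SMCs, Nudt3 beside Hmga1 was lost in 5 of 6 limma fits with 1 library left out (adjusted p of up to 0.13). Liph beside Igf2bp2 averaged 0.366 TPM with Scr and 2.47 TPM with siKlf4 in SMCs. RPS10-NUDT3, which overlaps Nudt3, had no values. Msrb3, a methionine sulfoxide reductase gene 304627 bases above Hmga2, rose by 0.64 in SMCs (limma adjusted p = 0.0023) and had 0.04 in PDGFR-β+ cells (adjusted p = 0.65). Llph, 128693 bases below Hmga2, fell by 0.41 in PDGFR-β+ cells (limma adjusted p = 0.018, lost without siKlf4 replicate 1 or siKlf4 replicate 3, up to 0.062) and had 0.03 in SMCs (adjusted p = 0.75). The other two genes beside Hmga2 were Tmbim4, which passed in neither, and Lemd3, which rose by 0.32 in SMCs (limma adjusted p = 0.025). That call held without the Scr library that carries no number and was lost without any other 1 library (adjusted p of up to 0.075). Beside Igf2bp2, Etv5, an ETS transcription factor gene, rose in both cell types, by 0.46 and 0.82 (limma adjusted p = 0.011 and 4.4e-04), and so did Tra2b, a splicing factor gene, by 0.37 and 0.36 (adjusted p = 0.0083 and 0.016, the latter lost without siKlf4 replicate 1 or siKlf4 replicate 2, up to 0.060). Gpnmb, next to Igf2bp3, rose by 0.54 in SMCs (limma adjusted p = 0.0031).

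Klf4 and its relatives bind CACCC-like letters, so the RefSeq promoter windows (GRCm38.p6, 250 bases before to 50 after the start) were searched for CACCC on either strand, which reads GGGTG on the other. The windows of Hmga2, Igf2bp2 and Igf2bp3 had 1 match each and that of Hmga1 had 0, while 57.5% of 32851 promoter windows had at least 1. The presence of these letters thus does not set the 4 genes apart, and no binding was measured. The upstream parts of Hmga2 and Igf2bp3, the gene with differences of opposite direction in the cell types and the one with the largest baseline difference, are printed in the direction of transcription with the match in capitals.
Hmga2 chr10:120476470-120476719 (minus strand): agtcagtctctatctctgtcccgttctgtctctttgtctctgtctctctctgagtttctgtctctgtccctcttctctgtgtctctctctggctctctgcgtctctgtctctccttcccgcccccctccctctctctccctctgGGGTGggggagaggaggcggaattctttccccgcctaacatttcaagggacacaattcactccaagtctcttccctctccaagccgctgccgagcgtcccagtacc
Igf2bp3 chr6:49214958-49215204 (minus strand): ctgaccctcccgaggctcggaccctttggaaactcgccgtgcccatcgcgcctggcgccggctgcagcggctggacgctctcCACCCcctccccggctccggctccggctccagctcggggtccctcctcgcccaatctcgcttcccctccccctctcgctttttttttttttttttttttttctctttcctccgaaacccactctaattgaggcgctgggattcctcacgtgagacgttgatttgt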

How the data were processed

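The authors deposited 1 table per cell type with TPM values per gene, made per the labels and the study's methods from trimmed reads aligned to mm10 with HISAT2 and quantified with StringTie, and they tested counts with DESeq2. Versions of HISAT2 and StringTie are not given in the sources used here, and TPM keeps no record of depth. In the SMC table, 1 column of each group carries no replicate number, so that library was used as a member of its group only.

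From these tables, log2(TPM + 1) was fitted with limma 3.58.1 in R 4.3.3 (eBayes with a mean-variance trend, two-sided, Benjamini-Hochberg adjustment, threshold 0.05) over genes averaging 1 TPM or more, within each cell type, for Scr libraries between cell types, and with an interaction term over all 12 libraries. The TPM unit replaces the count test of the authors. The fit was tested on simulated data. Members and lists were chosen with earlier results of these data known, and members got no test. The study describes the 3 libraries of a group as independent experiments, and the labels do not say whether these were separate cultures or animals, so p-values measure the spread between these libraries. With 3 against 3 an exact permutation test of 1 gene cannot go below p = 0.1.

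Genes were named by a rule: the 5 members, Klf4, near copies of a member, all tested genes of a list with up to 8, otherwise the 3 with the smallest adjusted p in either cell type plus Lin28a, Lin28b, Dicer1, Igf2, H19, Myc and Cdkn2a, the 2 nearest protein-coding genes on each side, and the 3 genes with the highest Pearson r over 12 libraries. Genes outside this rule that make up a count of 5 or fewer were named after their values were seen. Some genes that the rule covers are not reported here. Marker genes were used to check the cell types. Of 52636 identifiers, 52403 were found in GENCODE M21, from which coordinates were taken. Promoters and microRNAs came from RefSeq, which had an entry for 4 of the 5 members' promoters. Alternatives were another pseudocount, no or a stricter filter, median-ratio scaling, no trend, a replicate block and leaving out each library. Python 3.11.15, pandas 2.3.3, numpy 2.4.6 and matplotlib 3.10.9 were used.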

Additional observations from a re-analysis of the deposited data

Results flagged for a closer look

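Hmga2 was flagged because every siKlf4 library lay above every Scr library in SMCs and below every one in PDGFR-β+ cells, with log2 changes 2.55 apart. Such opposite separation held for 4.98% of 13032 genes. The difference was not tested, since the gene was chosen on this contrast.

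For 30 of 51 other named genes tested, the change with siKlf4 differed between the cell types by the limma interaction term over 12 libraries (largest adjusted p = 0.047). Many of them were named for a small adjusted p in these same libraries, so that count is not read against the 33% of all 13032 genes. All differences here are log2 values, SMCs minus PDGFR-β+ cells. A positive value can come from a rise in SMCs, a fall in PDGFR-β+ cells or both, as for Ccnd1 (0.40 and -1.81). Positive were, among cell cycle genes, Ccnd1 (2.21), Mki67 (1.81), Ccna2 (1.68), Bub1 (1.40), Mcm5 (1.14) and Ccnb2 (1.13), and, among other listed genes, Cd44 (0.95), Actb (0.84), Ythdf3 (0.84), Hmgn1 (0.79) and Ago1 (0.49). Of these, Ythdf3, Hmgn1 and Ago1 passed only in PDGFR-β+ cells, where they fell. Negative were Cdkn1c (-2.36), Snai2 (-0.96), Cdkn2a (-0.87), Zcchc11 (-0.73), Hmgn3 (-0.69), Peg3 (-0.68), Hmgb2 (-0.67), Plagl2 (-0.52), Cdkn2b (-0.51), Hnrnpa2b1 (-0.35) and Twist1 (-0.25). Of the genes next to a member, Msrb3 (0.60), Llph (0.44) and Lemd3 (0.37) beside Hmga2, Nudt3 (0.44) beside Hmga1, Gpnmb (0.42) beside Igf2bp3, and Senp2 (0.39) and Etv5 (-0.36) beside Igf2bp2 differed as well. The knockdown itself did too: the log2 change of Klf4 was 1.19 less negative in SMCs, where 21.9% of its Scr level was left against 9.16% in PDGFR-β+ cells. Its part in the other differences was not tested. Calls of 5 genes were lost when 1 library was left out, with an adjusted p of up to 0.11: Twist1 without any but PDGFR-β+ siKlf4 replicate 3, Hmgn3 without any but SMC Scr replicate 2 and the SMC siKlf4 library that carries no number, and Etv5 without any but PDGFR-β+ Scr replicate 2 and the SMC Scr library that carries no number. The call of Cdkn2a was lost without PDGFR-β+ Scr replicate 3, PDGFR-β+ siKlf4 replicate 1 or 3, SMC Scr replicate 2 or 3, or the SMC siKlf4 library that carries no number. That of Actb was lost without PDGFR-β+ siKlf4 replicate 1 or 3 or SMC siKlf4 replicate 3.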

How the results depend on the processing

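All 10 log2 changes of the members kept their sign under every alternative run, and 92 of 95 refits moved by less than the pooled SD between replicates. The exceptions were Igf2bp1 in SMCs with a pseudocount of 0.1 (1.10), and Igf2bp2 (-0.19) and Igf2bp3 (0.63) in PDGFR-β+ cells after median-ratio scaling. Refits that left out 1 of 3 libraries could not reach that limit, and could not turn the sign where groups did not overlap. For those refits the outcome was thus fixed in advance, and no stability is read from it. Leaving out each library gave 2216 to 3563 changed genes in SMCs against 3910 with all libraries (2539 without Scr replicate 2, 2216 without siKlf4 replicate 2, 2342 without siKlf4 replicate 3), and 13 to 25 listed genes against 27. It gave 4207 to 5298 genes against 5559 in PDGFR-β+ cells. Median-ratio scaling turned the PDGFR-β+ split from 3461 higher and 2098 lower to 2687 and 2939. It turned the SMC split as well, from 2136 higher and 1774 lower to 1860 and 2037. Same-numbered libraries did not deviate together in PDGFR-β+ cells (r of 0.073, -0.016 and 0.0043), where the numbers were not taken as pairs. In SMCs, with 2 numbered libraries per group, r was 0.11 for equal numbers. The -0.11 for unequal numbers is its mirror by construction, so these values cannot decide on pairing in SMCs. The main SMC fit used no pairs, since 1 library of each group carries no number. With a replicate block over numbered libraries the counts were 2853 in SMCs, 5641 in PDGFR-β+ cells and 3882 for the difference between them, with 21 and 39 listed genes. In SMCs that fit rests on 2 libraries per group, so little spread is left to measure. The same SMC libraries without a block gave 3965 genes. Under that block, H19 (adjusted p = 0.012), Cdkn2a (0.045) and Zcchc6 (0.043) passed in SMCs by limma, as did Ccnb2 (0.036) and Mcm5 (0.029) in PDGFR-β+ cells. Plagl2, Hmgb2, Cd44, Lemd3 and Etv5 no longer passed in SMCs (0.051 to 0.12). For the difference between cell types, Lemd2 passed (0.028) and Twist1, Lemd3 and Etv5 did not (0.055 to 0.098). Fallen genes in SMCs numbered 6 rather than 4 in the fetal growth list and 2 rather than 1 among HMGA2 targets, IGF2BP targets had 1 risen and 1 fallen, and risen genes numbered 4 among let-7 targets in either cell type, and in SMCs 2 among m6A genes, 1 in the let-7 axis and 0 among other HMG genes. Of 2275 refits of other named genes, 72 differed in sign from the main value, none of them with either value past the threshold, and 10 of 52 calls were lost without some library. Depth per library is not kept in TPM, and genes near 0 TPM, such as Lin28b, are not measurable beyond their listing.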
